A study of Mus musculus with 60 samples.

Results

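The 10 genes described here write, read or recruit methylation of histone H3 lysine 9 (H3K9) or silence repeats together with it. They are Setdb1, Trim28, Atf7ip, Morc3, Suv39h1, Suv39h2, Ehmt1, Ehmt2, Cbx1 and Cbx5, chosen by name from the 55487 genes of the count tables, each matching 1 Ensembl gene identifier. The rule that lists them uses no measured value. The study asked what happens in mouse embryonic stem cells (mESCs) when the passing of parental histones to the new DNA strands is disturbed on the leading strand side, the lagging strand side or both.

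The cells were E14JU mESCs of 129/Ola background in which POLE4 was fused to a dTAG degron, so that the small molecule dTAG-13 destroys this subunit of the leading strand DNA polymerase epsilon. Cells treated with DMSO are called Ctrl and cells treated with 1 uM dTAG-13 are called dPOLE4. A second line, also with the POLE4 degron, carried the MCM2-2A mutation in the histone-binding part of the replicative helicase subunit MCM2, and gave the groups Ctrl MCM2-2A and dPOLE4 MCM2-2A. Each background was 1 clone, so the mutation and the clone cannot be told apart. After 24 h of treatment in serum and LIF (T0), cells were moved to retinoic acid (RA) without LIF for 12, 24 or 60 h (T12, T24, T60), and a second experiment held 96 h of treatment. Each of the 20 groups had 3 libraries. The study's methods call such libraries biological replicates. The labels do not say whether they were separate cultures, so p-values measure the spread between libraries.

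H3K9 methylation marks heterochromatin and keeps many endogenous retroviruses and young LINE-1 elements silent. TRIM28 is brought to such elements by KRAB zinc finger proteins and recruits the trimethylase SETDB1, which ATF7IP stabilises. SUV39H1 and SUV39H2 trimethylate H3K9 at pericentromeric repeats, EHMT1 (GLP) and EHMT2 (G9a) form a dimer that monomethylates and dimethylates it in euchromatin, and HP1beta (Cbx1) and HP1alpha (Cbx5) bind the methylated residue.

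Library totals were 10461077 to 46609151 counts in the 48 libraries of the first experiment and 7126100 to 23598266 in the 12 libraries of the second. The lowest count of any of the 10 genes in any library was 147, for Suv39h1. The quasi-likelihood test of edgeR was used for differences, and a gene "passed" at an adjusted p below 0.01 over all genes and repeat subfamilies tested. It was DE when its log2 fold change also exceeded 0.58 in size. The 8 mESC markers were all detected in every group, with a summed level of 3280 to 3440 CPM (library-size-scaled counts) at T0 in Ctrl, so that the labelled cell type showed its markers. The targeted protein cannot be checked here, because the degron acts on POLE4 protein. Pole4 RNA differed by −0.01 (log2) between dPOLE4 and Ctrl at T0, with an adjusted p of 0.98.

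In self-renewing Ctrl cells the genes differed widely in level. Per kilobase of exon (CPM per kb), Trim28 stood at 630 ± 12.8 (SD, n = 3), Cbx1 at 90.7 ± 1.69 and Cbx5 at 66.0 ± 2.07. Ehmt2 followed at 33.0 ± 1.04, then Setdb1 at 27.6 ± 1.57 and Morc3 at 27.4 ± 0.652. Ehmt1 lay at 14.8 ± 0.558, Atf7ip at 8.40 ± 0.0631, Suv39h2 at 7.72 ± 0.504 and Suv39h1 at 4.99 ± 0.219. Setdb1 and Morc3 overlapped between libraries. Atf7ip, at 8.34 to 8.47, and Suv39h2, at 7.29 to 8.28 CPM per kb, lay close without overlap, and the other neighbours in this order did not overlap either. The scale divides by all annotated exon bases, which for Atf7ip came to 20726 and for Trim28 to 4158.

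The promoter stretches of the gene that fell most under RA, Trim28, and of the one that rose most, Suv39h1, are shown because the response to RA separated these genes. Each is the 250 bases before the start site in RefSeq (GRCm38.p6), read 5′ to 3′ on the gene's strand, at chr7:13023902-13024151 (plus strand) and chrX:8074761-8075010 (minus strand). Neither overlaps an annotated exon. Capitals mark the GC box, GGGCGG or its reverse complement CCGCCC, a letter string that SP and KLF factors can bind.
Trim28: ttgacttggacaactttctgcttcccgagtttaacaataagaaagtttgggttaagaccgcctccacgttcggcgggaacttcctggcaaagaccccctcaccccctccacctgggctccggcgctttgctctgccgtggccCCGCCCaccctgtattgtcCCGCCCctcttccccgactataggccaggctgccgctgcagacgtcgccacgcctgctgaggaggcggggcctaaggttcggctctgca
Suv39h1: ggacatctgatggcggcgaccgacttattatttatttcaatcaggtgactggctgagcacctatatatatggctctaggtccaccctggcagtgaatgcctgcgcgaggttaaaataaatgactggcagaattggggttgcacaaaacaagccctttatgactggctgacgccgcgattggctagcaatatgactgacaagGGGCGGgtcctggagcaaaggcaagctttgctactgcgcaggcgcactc

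Trim28 held 2 GC boxes and Suv39h1 held 1 in these windows. All 10 genes had at least 1 in every window searched, against 32.7% of 32851 windows of the same length in all genes. The RA receptor half-sites AGGTCA and AGTTCA, searched on both strands without regard to overlap, were in neither sequence. Among the 10 genes, Ehmt1 held 1 AGGTCA and Cbx5 held 1 AGTTCA, while 24.2% of all windows had at least 1 of them. A match is a description of the letters and not a binding site.

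The first comparison followed the genes as Ctrl cells left self-renewal under RA. Trim28, the corepressor, fell steadily. Its level was 2674, 2569 and 2619 CPM in the 3 libraries at T0, 1859, 1912 and 1836 at T12, 1566, 1576 and 1576 at T24, and 968.9, 798.9 and 832.7 at T60. No library of one time overlapped any library of another. The log2 fold change against T0 was −0.49 ± 0.05 (SE) at T12, −0.73 ± 0.04 at T24 and −1.62 ± 0.08 at T60, where the adjusted p was 6.51e-11 in edgeR.

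Setdb1, the trimethylase that TRIM28 recruits, took the same direction. Its CPM was 181.3, 184.4 and 201.3 at T0, 143.5, 134.9 and 146.4 at T12, 115.9, 115 and 116.6 at T24, and 100.3, 102.4 and 104.5 at T60. Again the times did not overlap. Against T0 it fell by 0.41 ± 0.06, 0.70 ± 0.05 and 0.91 ± 0.06 on the log2 scale. Its partner Atf7ip did not pass at T12 or T24, where its log2 fold changes were 0.10 ± 0.06 and 0.05 ± 0.04, and fell by 0.44 ± 0.06 at T60. Atf7ip stood at 174, 172.8 and 175.4 CPM at T0 and at 128.5, 136.2 and 125.9 at T60. Morc3, a CW zinc finger ATPase that also acts on silenced repeats, fell by 0.15 ± 0.04 at T24. By T60 it had gone from 144.4, 150.5 and 150.7 CPM at T0 to 78.75, 83.8 and 86.28 (log2 fold change −0.86 ± 0.06).

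Suv39h1 rose most. Its libraries held 26.65, 25.03 and 27.27 CPM at T0, 42.15, 39.51 and 40.18 at T12, 51.17, 56.68 and 60.68 at T24, and 88.79, 84.17 and 83.41 at T60. The times did not overlap, and the mean at T60 was 3.25 times that at T0 (log2 fold change 1.68 ± 0.07, adjusted p = 1.15e-11, edgeR). Suv39h2, its paralogue with the same enzymatic activity, moved the other way at T60. It had 32.15, 36.49 and 33.49 CPM at T0 and 21.85, 26.78 and 23.32 at T60, a log2 fold change of −0.53 ± 0.09.

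The ratio of Suv39h1 to Suv39h2 per kilobase was therefore 0.694, 0.574 and 0.681 at T0 and 3.4, 2.63 and 2.99 at T60. The groups did not overlap, and the exact permutation test on the log2 ratio (two-sided, 3 against 3) gave 0.1, the smallest p this design allows. The locus carries an antisense gene, Gm14820, which overlaps Suv39h1 by 13449 bp. Its median count was 96.5 over all 60 libraries, which does not give its level at T0. Gm14820 changed by −1.84, −2.79 and −7.06 on the log2 scale at T12, T24 and T60, opposite to Suv39h1. The library kit keeps the strand, but the strand setting of the counting is not given in the sources used here.

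**Figure D1:**
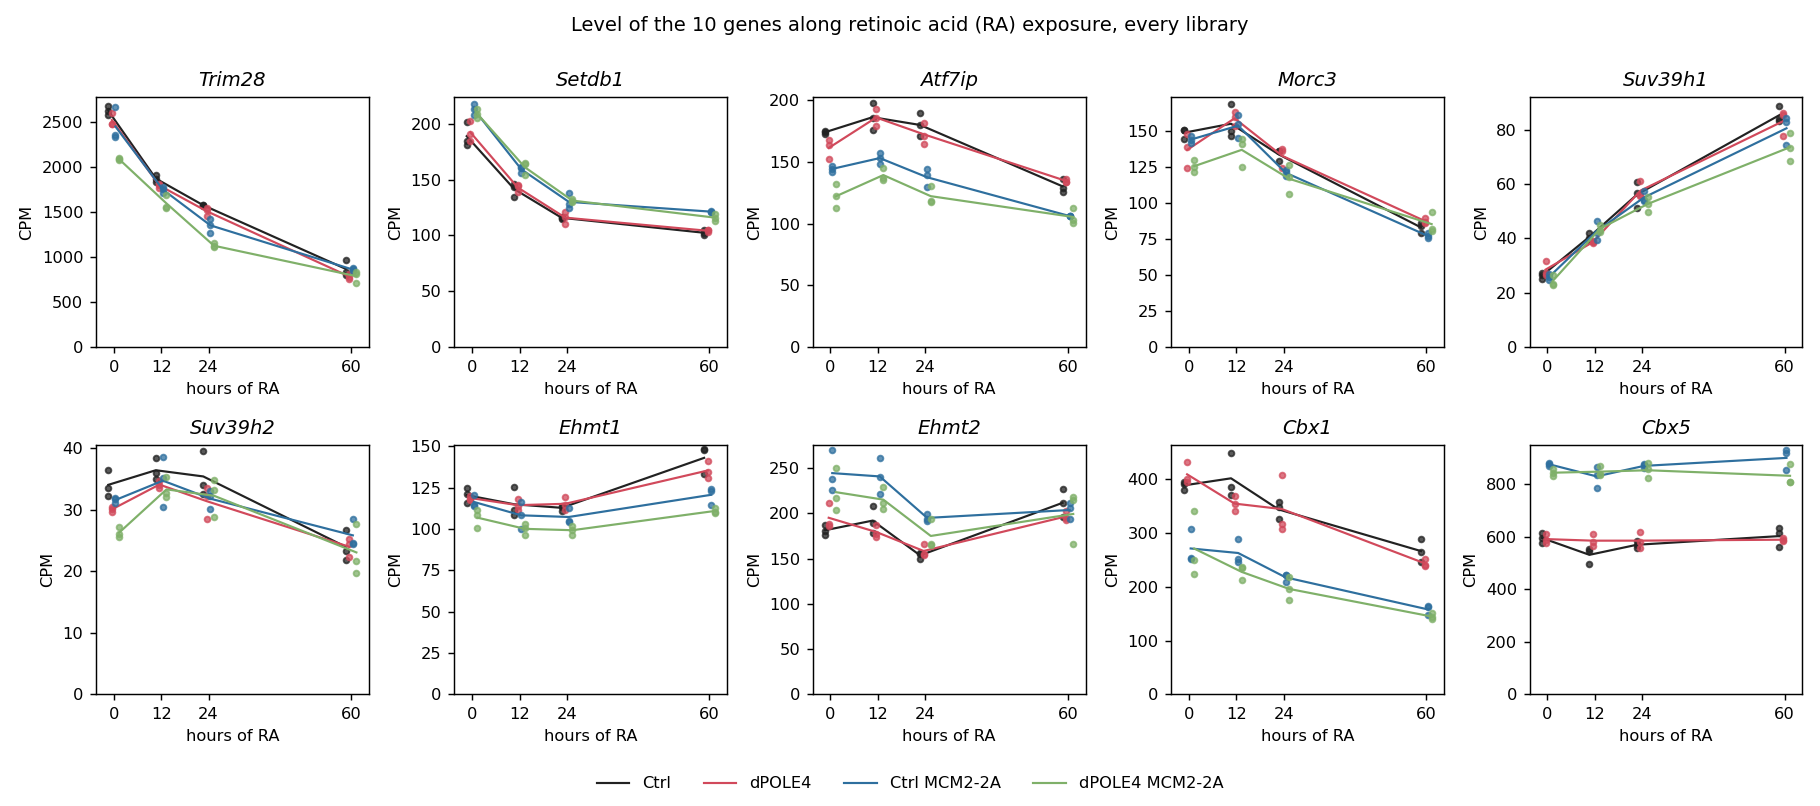
CPM of each gene (vertical axis, from 0, scaled per gene) against hours of RA (horizontal axis) in Ctrl, dPOLE4, Ctrl MCM2-2A and dPOLE4 MCM2-2A; points are libraries, drawn slightly apart, and lines join the means of 3. Trim28 fell from 2569 to 2674 CPM in Ctrl at T0 to 798.9 to 968.9 at T60, Suv39h1 rose, and Cbx1 and Cbx5 lay apart by line at every time.

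The G9a and GLP genes moved little. Ehmt2 (G9a) had 187.1, 180.8 and 175.7 CPM at T0, 156, 154.7 and 149.7 at T24 and 226.9, 196.3 and 211 at T60. It was thus lowest at T24 (log2 fold change −0.23 ± 0.04) and highest at T60 (0.20 ± 0.06, adjusted p = 0.00838, edgeR). Ehmt1 (GLP) stood at 115.7, 124.6 and 120.9 CPM at T0 and at 147.5, 132.9 and 148.3 at T60 (0.23 ± 0.06, adjusted p = 0.00334, edgeR). Their ratio per kilobase was 0.45 ± 0.0276 (SD, n = 3) at T0 and 0.458 ± 0.018 at T60, which overlapped (exact permutation p = 0.7).

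Of the HP1 genes, Cbx1 fell and Cbx5 did not pass at any time. Cbx1 went from 389.7, 393.6 and 379.6 CPM at T0 to 264.4, 245 and 288.4 at T60, a log2 fold change of −0.56 ± 0.06. Cbx5 had 576, 594 and 613.3 CPM at T0 and 559, 614.4 and 631.3 at T60, so that the groups overlapped (log2 fold change −0.00 ± 0.06, adjusted p = 0.968, edgeR). The Cbx5 to Cbx1 ratio per kilobase was 0.728 ± 0.0342 at T0 and 1.08 ± 0.0991 at T60 (exact permutation p = 0.1).

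Counted by direction, 1 of the 10 passed higher and 2 lower at T12, where 11.1% and 9.03% of all features did. At T24, 1 passed higher and 5 lower, against 22.4% and 20.3%. By T60, 3 passed higher and 6 lower, against 34.1% and 32.6%. The median log2 fold change of the 10 was −0.49 at T60, beside −0.01 over all features. With the fold cutoff added, 1, 3 and 4 genes were DE at T12, T24 and T60, against 11.3%, 21.8% and 50.6% of features. Libraries did not overlap with those of T0 for 5, 7 and 9 of the 10 genes, against 46.7%, 61.2% and 77.2% of features.

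**Figure D2:**
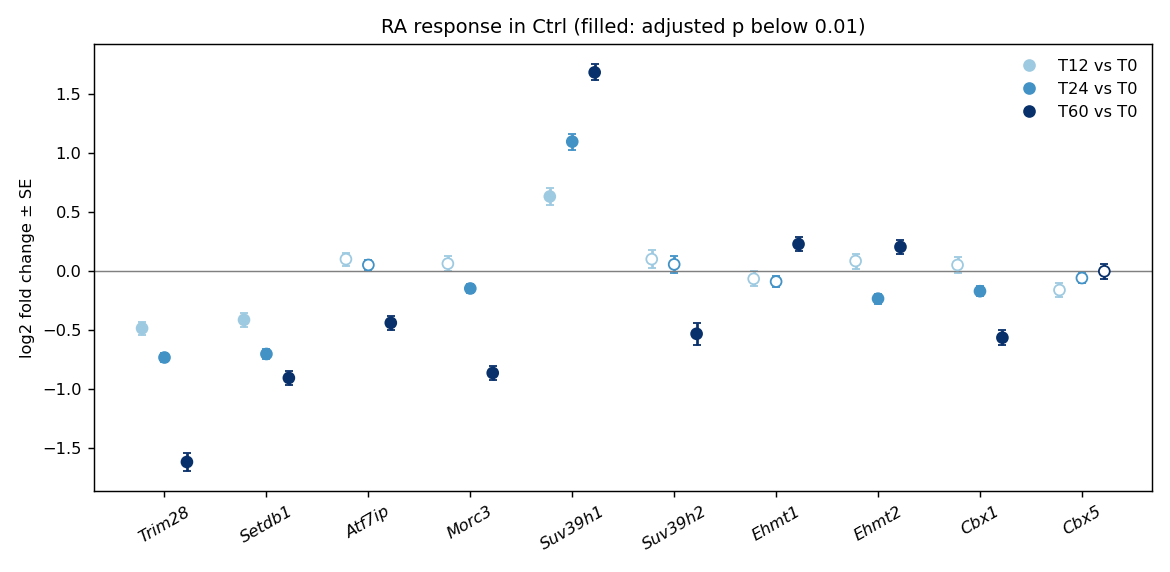
Log2 fold change with its SE (vertical axis) of the 10 genes (horizontal axis) in Ctrl at T12, T24 and T60 against T0; filled points passed at an adjusted p below 0.01. Suv39h1 reached 1.68 and Trim28 −1.62 at T60, and Cbx5 was unfilled at all 3 times.

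4 of these calls rested on single libraries. Morc3 at T24 (adjusted p = 0.00778, edgeR) did not pass without any 1 of 5 libraries, all but Ctrl T0 replicate 1, and its adjusted p then reached 0.0339. Cbx1 at T24 (adjusted p = 0.00338) was lost without Ctrl T0 replicate 2 or Ctrl T24 replicate 1, up to 0.0303. Ehmt1 at T60 was lost without any Ctrl T0 library or without Ctrl T60 replicate 3, up to 0.0188 in edgeR. Ehmt2 at T60 was lost without replicate 2 or 3 of T0 or replicate 1 or 3 of T60, up to 0.0412.

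Other cell states moved over the same hours. The 8 mESC markers, Pou5f1, Nanog and others, fell to a summed 275 to 358 CPM at T60 in Ctrl, and all 8 passed lower. The 8 RA and neural markers rose from 113 to 136 CPM at T0 to 896 to 1030, 7 of them passing higher, and the 6 primitive endoderm markers from 13.5 to 28.6 to 356 to 397, all 6 passing higher. Of 5 fibroblast markers, 4 passed higher and 1 lower, and their sum went from 43.9 to 56.7 to 362 to 504 CPM. The 2-cell-like list, of which 1 of 6 members was at 0 throughout T0, rose from 7.01 to 22.2 to 221 to 298 CPM. The 4 trophoblast markers fell from 28.7 to 30.9 to 12.4 to 16.4 CPM, with 3 passing lower. In bulk libraries, less RNA per cell and fewer cells of a type cannot be told apart. The part of these shifts in the results for the 10 genes was not tested.

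The rest of the pathway at T60 in Ctrl moved in both directions. All 4 other readers passed lower (Cbx3, Uhrf1, Cdyl and Lrwd1, median −0.51). Of the 7 KRAB zinc finger and TRIM28 partner genes, 4 passed lower and none higher (median −0.58). Zfp57, which guards imprinted loci, changed by −2.79, while Zfp809, which targets proviruses, had risen by 1.01 at T12 and 1.14 at T24. Of the 14 chaperones, remodellers and SUMO factors, 8 passed lower and 2 higher, with Morc1 at −4.71 and Rif1 at −2.18. In the 8 other methyltransferases and their partners, 3 passed higher and 2 lower, Mecom rising by 3.64 and Wiz, a partner of G9a, by 0.49. The 9 demethylases gave 3 higher and 3 lower, Phf2 rising by 1.90. In the HUSH complex, which silences LINE-1, 2 of 4 passed lower.

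Among 23 repeat subfamilies known to be silenced by H3K9 methylation, 6 passed higher and 13 lower at T60 in Ctrl (median −0.46). The ETn family was lower, with ETnERV2-int at −4.05, MMETn-int at −3.76 and RLTRETN_Mm at −3.71. MT2_Mm rose by 2.44, MERVL-int by 2.32 and MMVL30-int by 1.81. Repeat counts include reads that map to many copies.

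The same T60 to T0 contrast was made in the other 3 groups, each with its own libraries. In dPOLE4, 2 genes passed higher and 6 lower (33.5% and 33.1% of features). In Ctrl MCM2-2A, 1 passed higher and 7 lower (33.1% and 30.9%), and in dPOLE4 MCM2-2A 1 passed higher and 4 lower (27.6% and 25.7%). DE genes numbered 5 in each of these groups, against 48.1%, 47.5% and 42.2% of features. Trim28 changed by −1.71 ± 0.05, −1.50 ± 0.08 and −1.44 ± 0.09 in the 3 groups, and Suv39h1 by 1.52 ± 0.07, 1.66 ± 0.07 and 1.56 ± 0.10. Setdb1 changed by −0.91, −0.80 and −0.88, and Cbx1 by −0.77, −0.77 and −0.93. Morc3 fell in all 3 by 0.67, 0.89 and 0.58. In Ctrl MCM2-2A the call of Suv39h2 depended on single libraries, and its adjusted p reached 0.0629 (edgeR) with 1 left out.

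Whether the RA response differed between the lines was tested as an interaction of Ctrl MCM2-2A and Ctrl. Ehmt2 was the 1 gene of 10 that passed, where 12.9% of all features did. Its CPM in Ctrl MCM2-2A was 269.6, 237.9 and 225.1 at T0 and 211.7, 193.5 and 205.3 at T60, a fall of 0.25 ± 0.07, against the rise of 0.20 in Ctrl. The fall did not pass without T0 replicate 2, T60 replicate 2 or T60 replicate 3 of this line, where the adjusted p reached 0.0254 in edgeR. The difference of both log2 changes was −0.48 ± 0.09 (adjusted p = 0.001, edgeR). The 2 lines thus differed at T0 and overlapped at T60. With the fold cutoff none of the 10 was DE, against 9.1% of features.

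The second comparison set Ctrl MCM2-2A against Ctrl at each time. Cbx1 was lower in Ctrl MCM2-2A and Cbx5 higher at all 5 times. At T0, Cbx1 stood at 389.7, 393.6 and 379.6 CPM in Ctrl and at 307.1, 253.9 and 251.3 in Ctrl MCM2-2A, with no overlap. The log2 fold changes of Cbx1 were −0.54 ± 0.07, −0.60 ± 0.09, −0.64 ± 0.05, −0.74 ± 0.07 and −0.83 ± 0.08 at T0, T12, T24, T60 and 96h. Cbx5 had 576, 594 and 613.3 CPM in Ctrl and 874.9, 868.8 and 879.5 in Ctrl MCM2-2A at T0. Its log2 fold changes were 0.54 ± 0.05, 0.65 ± 0.07, 0.63 ± 0.04, 0.59 ± 0.07 and 0.46 ± 0.08, and the lines did not overlap at any time. Adjusted p for both genes ranged from 5.34e-09 to 0.000764 (edgeR).

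The ratio of the HP1 genes, Cbx5 to Cbx1 per kilobase, put the lines on opposite sides of 1 at T0. It was 0.701, 0.716 and 0.767 in Ctrl and 1.35, 1.62 and 1.66 in Ctrl MCM2-2A. The side of 1 depends on the division by exon length, and the difference between the lines does not. Without that division Cbx5 had more counts than Cbx1 in both lines at T0. The log2 ratio of counts was then 0.56, 0.59 and 0.69 in Ctrl and 1.51, 1.78 and 1.81 in Ctrl MCM2-2A. At T60 the ratio per kilobase was 1.0, 1.19 and 1.04 in Ctrl and 2.47, 3.0 and 2.68 in Ctrl MCM2-2A. The log2 difference was 1.08, 1.25, 1.27, 1.33 and 1.29 at T0, T12, T24, T60 and 96h. The exact permutation p was 0.1 each time, again the smallest possible.

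**Figure D3:**
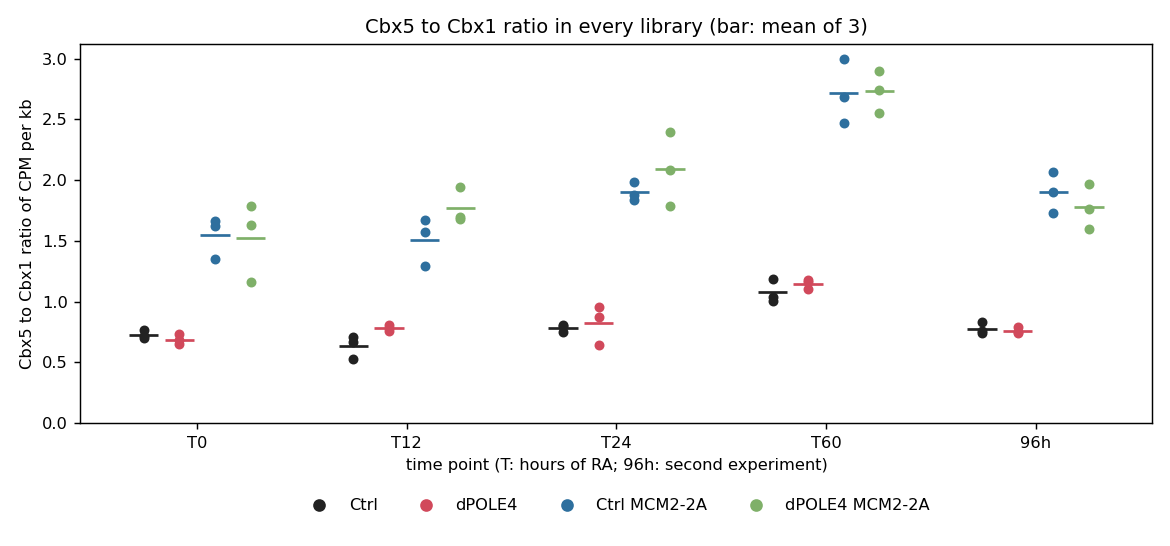
Ratio of Cbx5 to Cbx1 in CPM per kb (vertical axis, from 0) in every library by time point (horizontal axis); points are libraries and bars the means of 3. The libraries of both MCM2-2A groups lay above those of Ctrl and dPOLE4 at each time, for example at 2.47 to 3.0 in Ctrl MCM2-2A against 1.0 to 1.19 in Ctrl at T60.

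Both genes lie on chromosomes whose genes differed between the lines as a whole. Cbx1 is on chromosome 11 (chr11:96789127-96808640, GRCm38), where the median log2 fold change of 1391 tested genes was −0.48 at T0 and ranged from −0.55 to −0.49 at the 4 other times. Cbx5 is on chromosome 15 (chr15:103191544-103239816), where the median of 679 genes was 0.56 at T0 and 0.47 to 0.53 at the others. At T0, 43.4% of chromosome 11 genes lay below Cbx1 and 48.6% of chromosome 15 genes below Cbx5, so that neither stood apart from its chromosome. At 96h the value of Cbx1 minus its chromosome's median was −0.32. The part of these chromosome-wide differences in the result was not tested.

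Atf7ip was lower in Ctrl MCM2-2A at every time and Ehmt2 higher at 4 of 5. Atf7ip had 174, 172.8 and 175.4 CPM in Ctrl and 144.2, 142 and 146.8 in Ctrl MCM2-2A at T0, without overlap, with log2 fold changes of −0.29, −0.27, −0.36, −0.28 and −0.44 at T0, T12, T24, T60 and 96h. Ehmt2 had 187.1, 180.8 and 175.7 against 269.6, 237.9 and 225.1 CPM at T0, and changes of 0.41, 0.34, 0.37, −0.04 and 0.42. Their chromosomes, 6 and 17, had medians of −0.02 and 0.02 at T0. The ratio of Ehmt1 to Ehmt2 per kilobase was 0.45 ± 0.0276 in Ctrl and 0.323 ± 0.0206 in Ctrl MCM2-2A at T0, and 0.458 ± 0.018 and 0.401 ± 0.00814 at T60. At T12 the calls of both Atf7ip and Ehmt2 were lost without replicate 1 or replicate 3 of either line, leaving 2 of 10 genes. At 96h the call of Ehmt2 was lost without Ctrl replicate 1 or 3 or Ctrl MCM2-2A replicate 3, and at T60 that of Atf7ip without Ctrl MCM2-2A replicate 3 (adjusted p = 0.0116, edgeR).

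Setdb1 passed higher at T24 (0.19 ± 0.05) and T60 (0.26 ± 0.06), and Trim28 passed lower at T24 (−0.20 ± 0.05) and 96h (−0.30 ± 0.08, adjusted p = 0.00928, edgeR). Setdb1 did not pass at T0 (0.16), T12 (0.18) or 96h, where the second experiment gave the other sign (−0.14). The Setdb1 calls were lost without Ctrl MCM2-2A replicate 2 at either time, without Ctrl replicate 1 or 2 at T24 or without Ctrl MCM2-2A replicate 3 at T60. That of Trim28 at T24 was lost without Ctrl MCM2-2A replicate 1, and that at 96h without any library but Ctrl replicate 3. Ehmt1 passed lower at T60 (−0.23 ± 0.06), a call lost without any library but Ctrl replicate 2. In the second experiment, where same-numbered libraries varied together, a fit with the replicate number as a block gave Trim28 an adjusted p of 0.0106 and Morc3 (−0.30) one of 0.00865 in edgeR, in place of 0.0237 for Morc3. Suv39h1 and Suv39h2 did not pass at any time, with log2 fold changes of −0.18 to 0.13, and their ratio overlapped between the lines at each time.

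The members passing higher and lower numbered 2 and 2 at T0 (16.8% and 16.9% of features), 2 and 2 at T12 (11% and 12.9%) and 3 and 3 at T24 (18.4% and 16.8%). They numbered 2 and 3 at T60 (14.7% and 15.5%) and 2 and 3 at 96h (11.6% and 10%). DE genes numbered 0, 2, 2, 2 and 1 at T0, T12, T24, T60 and 96h, against 18.9%, 14.5%, 17.3%, 16.9% and 15.7%. At the same times the lines did not overlap for 6, 6, 7, 5 and 7 of the 10 genes. The shares of all features without overlap were 55%, 48.2%, 54.9%, 52.4% and 46.2%. The median of the 10 was −0.06 at T0, beside −0.02 over all features.

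**Figure D4:**
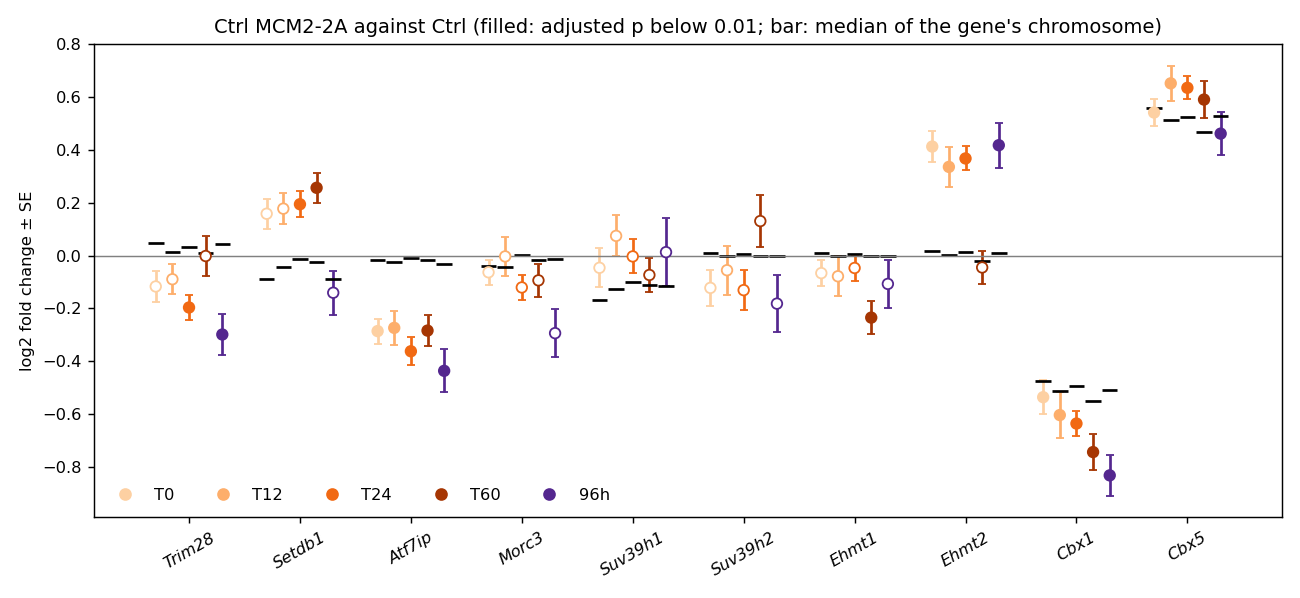
Log2 fold change with its SE (vertical axis) of the 10 genes (horizontal axis) in Ctrl MCM2-2A against Ctrl at 5 times; filled points passed, and black bars give the median of all tested genes on the same chromosome. Cbx1, at −0.54 at T0, and Cbx5, at 0.54, lay close to their chromosomes' medians of −0.48 and 0.56.

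Other genes of the pathway differed between the lines too. In the HUSH complex Mphosph8, which reads methylated H3K9, was higher by 1.40 at T0 and Morc2a lower (−0.58), with the same directions at the other 4 times. Among the other methyltransferases and partners, Setdb2 was higher by 0.90 and Atf7ip2 lower (−0.50) at T0 (2 passing higher and 2 lower of 8). The 14 chaperones, remodellers and SUMO factors gave 4 higher and 4 lower, with Morc1 at −0.80, and the 9 demethylases 1 higher and 3 lower. Of the 23 repeats, 3 passed higher and 4 lower at T0, MMERGLN-int at 0.95 and RLTR1B-int at −1.57. At T60, 14 passed higher and 1 lower (median 0.48), led by MMERGLN-int at 1.70, RLTR6-int at 1.43 and ETnERV2-int at 1.16. Mcm2 itself stood at −0.70 and Pole4 at −0.68 at T0. Unlike Cbx1 and Cbx5, the genes of this paragraph were not set against the neighbours on their chromosomes. The part of chromosome-wide or local differences between the lines in their values was not tested.

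Markers of other states moved with this contrast as well. At T60 the 8 mESC markers summed to 690 to 874 CPM in Ctrl MCM2-2A against 275 to 358 in Ctrl, and all 8 passed higher. The RA and neural markers summed to 737 to 749 against 896 to 1030, the primitive endoderm markers to 593 to 653 against 356 to 397, and the fibroblast markers to 178 to 193 against 362 to 504. Trophoblast markers summed to 21.9 to 26.6 against 12.4 to 16.4, and 2-cell-like markers to 144 to 195 against 221 to 298. None of these markers was at 0 in all libraries of either group. Their part in the results at T60 was not tested.

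The third comparison asked whether loss of POLE4 changed these genes. In the main edgeR fits, of the 2 groups compared and without a replicate block, none of the 10 passed at any of the 5 times in either background. Other edgeR fits without a block, with all groups or without the filter, passed Trim28 in MCM2-2A at T24. At 96h, where same-numbered libraries were taken as paired, the fit with that block passed 696 of 17580 features with wild-type MCM2, and none of the 10. In MCM2-2A it passed 1265 of 17421 features, Cbx5 among them. The shares that follow are without the block. In the background with wild-type MCM2, 0%, 0%, 0%, 0.415% and 0% of all features passed at T0, T12, T24, T60 and 96h. In MCM2-2A, 0.0715%, 0.863%, 2.31%, 3.46% and 0.31% passed. At an unadjusted p below 0.05, the members numbered 2, 2, 0, 0 and 4 with wild-type MCM2, against 11.6%, 6.42%, 7.6%, 14.3% and 12.3% of features. In MCM2-2A they numbered 4, 5, 3, 0 and 1, against 13.5%, 17.6%, 21.1%, 23.3% and 11.5%. DESeq2 called none of the 10 with wild-type MCM2, where it called 0.182%, 0.117%, 0.386%, 1.18% and 0.45% of features. In MCM2-2A it called Trim28 at T24 and none of the 10 at the other times, against 1.07%, 3%, 4.57%, 7.16% and 0.891% of features.

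The sizes were small. With wild-type MCM2 the log2 fold changes lay between −0.26 (Suv39h2 at 96h, 0.09 SE) and 0.14 (Cbx5 at T12, 0.06 SE). In MCM2-2A they lay between −0.26 and 0.15, with SEs of 0.0526 to 0.136. In MCM2-2A 9, 7, 8, 9 and 9 of the 10 genes were lower in dPOLE4 at T0, T12, T24, T60 and 96h, and with wild-type MCM2 6, 7, 4, 6 and 7. The medians in MCM2-2A were −0.12, −0.12, −0.08, −0.12 and −0.11, beside −0.00 to 0.01 over all features. With wild-type MCM2, 7 genes were lower at T12 and at 96h but 4 at T24, and none of them passed. Whether the direction of the genes as a set differed between the backgrounds was not tested. Log2 fold changes at 96h with wild-type MCM2 ran from −0.26 to 0.11. A p that misses the threshold does not show that changes of this size were absent.

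In the main edgeR fits, Trim28 came nearest to a call. It stood at 1358, 1425 and 1266 CPM in Ctrl MCM2-2A and at 1105, 1150 and 1116 in dPOLE4 MCM2-2A at T24. These groups did not overlap, as for 26.5% of all features. The log2 fold change was −0.26 ± 0.06 with an adjusted p of 0.0227 in edgeR and of 0.000387 in DESeq2, by which 4.57% of features passed. Without dPOLE4 MCM2-2A replicate 2 it passed in edgeR too, with an adjusted p of 0.00823. At T0 the same groups had 2661, 2349 and 2328 against 2077, 2094 and 2084 CPM, and a log2 fold change of −0.22 ± 0.08 (adjusted p = 0.268, edgeR). At T60 the libraries again did not overlap, with a log2 fold change of −0.13 ± 0.07 (adjusted p = 0.33, edgeR).

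At 96h in MCM2-2A, Cbx5 had 792.8, 675.6 and 715.6 CPM in Ctrl and 676.9, 595.1 and 604.6 in dPOLE4. The libraries overlapped by 1, and each dPOLE4 library lay below the Ctrl library of its number. The log2 fold change was −0.22 ± 0.09 (adjusted p = 0.367, edgeR), and with the replicate number as a block the adjusted p was 0.000416, in a fit where 7.26% of features and 1 of the 10 genes passed. Cbx5 was lower with wild-type MCM2 at 96h as well, without passing. It had 512.1, 556.7 and 535.5 CPM in Ctrl and 486.1, 466.2 and 461.5 in dPOLE4. These groups did not overlap, as for 17.9% of all features.

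**Figure D5:**
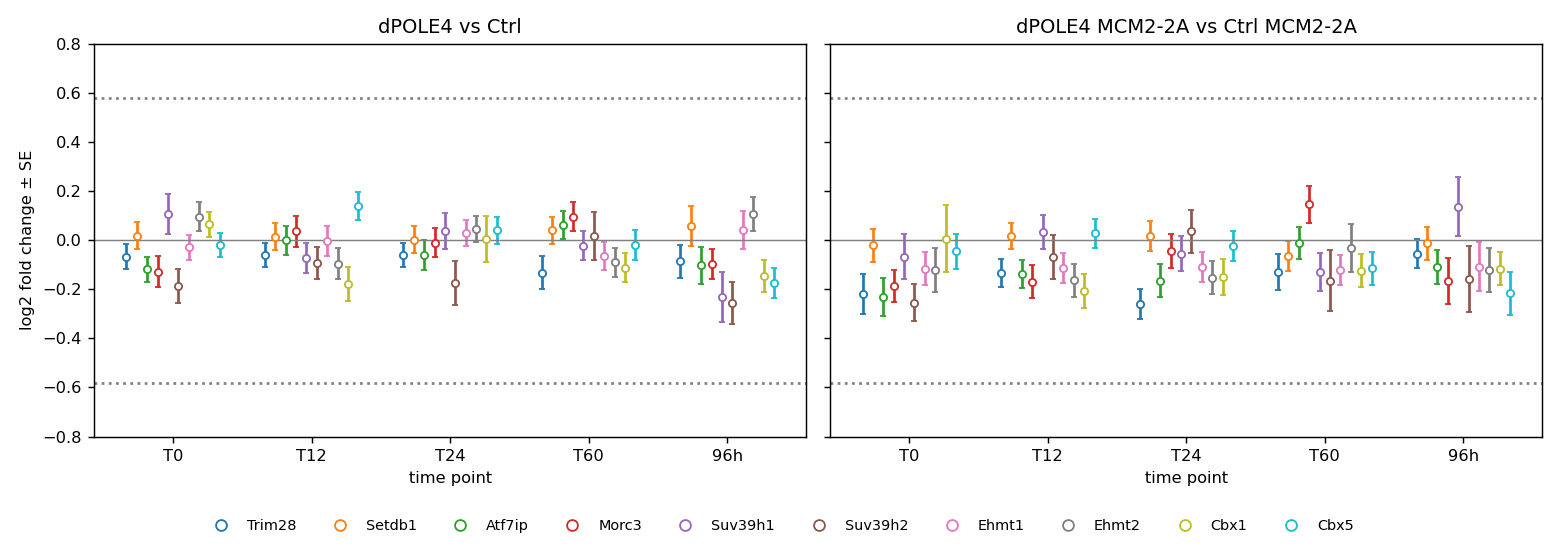
Log2 fold change with its SE (vertical axis) of the 10 genes in dPOLE4 against Ctrl (left) and dPOLE4 MCM2-2A against Ctrl MCM2-2A (right) at 5 times (horizontal axis); open points did not pass, and dotted lines mark the DE cutoff of 0.58. All points are open and lie between −0.26 and 0.15.

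The effect of POLE4 loss was not shown to differ between the backgrounds for any of the 10 genes. None passed the interaction test in edgeR at any time, where 0.00526%, 0.0159%, 0.0351%, 0.116% and 0% of features did at T0, T12, T24, T60 and 96h. DESeq2 called none either, against 0.0776%, 0.256%, 0.268%, 0.692% and 0.00277% of features. At an unadjusted p below 0.05 the genes numbered 0, 1, 2, 0 and 1, against 5.39%, 7.4%, 8.81%, 10.1% and 3.7%. The largest difference was 0.37 ± 0.16 for Suv39h1 at 96h.

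Targets and partners were called in a few of these contrasts. With wild-type MCM2, 4 of the 23 repeats passed higher at T60 and none lower (median 0.23), among them MMVL30-int at 0.85 and MMERVK10C-int at 0.53. In MCM2-2A, MMERGLN-int was lower in dPOLE4 at all 5 times (−0.65 at T0 and −0.77 at T24), and MERVL-int was higher by 1.00 at 96h. At T60, MMVL30-int was higher by 0.56 and L1Md_Gf by 0.53. Of the 9 demethylases, Kdm4c and Kdm4b passed lower at T12 and T24, with Kdm4c at −0.50 at T24, and Phf2 passed lower at T60 (−0.43). No gene of the other 5 pathway lists passed in any of these 10 contrasts.

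Across the 16 group means of the first experiment, the genes fell into patterns that shared their libraries and are given as a description. Setdb1 and Trim28 correlated at r = 0.855 with each other and at −0.955 and −0.944 with Suv39h1. Atf7ip and Cbx1 correlated at 0.915, and Cbx1 and Cbx5 at −0.775. The most similar of 21330 features to each gene were Zfp428 for Setdb1 (r = 0.983), Urb2 for Trim28 (0.993), Kif2a for Atf7ip (0.984), Ttpa for Morc3 (0.991) and Rnf103 for Suv39h1 (0.990). They were Washc4 for Suv39h2 (0.961), Col5a2 for Ehmt1 (0.961), Cers5 for Ehmt2 (0.921), Mcm2 for Cbx1 (0.988) and Mipep for Cbx5 (0.983). For Trim28, 1243 features reached r above 0.9, and for Ehmt2 only 2.

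Some counts share sequence or ground with neighbours. Trim28 overlaps Zbtb45 on the opposite strand over 6137 bp, and Zbtb45 also fell at T60 in Ctrl, by 1.52. Suv39h2 overlaps Dclre1c over 8316 bp, which fell by 0.97. A stretch of 600 of 3116 bases of Suv39h1 matches its antisense gene Gm14820 at 100% identity. A stretch of 295 bases of Setdb1 is 99.7% identical in the noncoding gene Gm4349, whose log2 fold change at T60 was −0.18. Reads of these stretches may be split, so that values of the genes concerned carry that uncertainty.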

How the data were processed

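Total RNA depleted of ribosomal RNA was sequenced from 60 libraries, 3 per group. The authors trimmed reads with cutadapt (version 4.2 per the labels), aligned them with STAR to mm10 keeping reads that map to many places, and counted genes and repeat subfamilies with TEcount. The deposited values are raw counts, and libraries of 1 group differed by more than counting error (chi-square per degree of freedom 3.13 to 49.8). Here edgeR 4.0.16 in R 4.3.3 fitted the 2 groups compared (4 for an interaction) with TMM scaling over genes and repeats, after filterByExpr (minimum count 10, minimum total 15), with Benjamini-Hochberg adjustment over all features tested. The threshold was an adjusted p of 0.01, with 0.58 on the log2 scale for DE, and DESeq2 1.42.0 was an alternative. CPM are counts scaled by the TMM library size. Ratios were tested with exact two-sided permutation tests. The fits were tested on simulated data.

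The 10 genes and the pathway, marker and repeat lists were chosen with earlier results of these data known. Genes outside the 10 were named as the largest passing changes of their list, and genes of like pattern by Pearson's r over group means. Gene positions came from GENCODE M21 (GRCm38). Same-numbered libraries were taken as paired where the deviations of every pair correlated above 0.1, which held at 96h only (0.11 to 0.34). POLE4 loss in MCM2-2A at T0 came close, at 0.099 to 0.25. 1 label text gives other RA times than the titles, and the titles were used.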

Additional observations from a re-analysis of the deposited data

Results flagged for a closer look

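The change of Ehmt2 under RA differed between the lines. The log2 change from T0 to T60 was lower in Ctrl MCM2-2A than in Ctrl by 0.48, written as a difference of −0.484 with an adjusted p of 0.001 in edgeR's interaction test. Ehmt2 was the 1 gene of 10 that passed this test, against 12.9% of all features, and it was not DE. The rise in Ctrl and the fall in Ctrl MCM2-2A each lost their call with some single libraries left out. Each line was 1 clone, so line and mutation cannot be told apart.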

How the results depend on the processing

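Of 64 passing results of single genes, 760 of 837 alternative values kept direction and threshold, 77 no longer passed (56 of them with a library left out) and 0 reversed. Of 206 results that did not pass, 16 of 2973 alternative values passed, 0 of them with the sign reversed. Sign changes between values that both missed the threshold were not counted, and some occurred. Suv39h1 in the line contrast at 96h, for example, ran from −0.07 to 0.12 with 1 library left out. With the fold cutoff the line contrast counted 0, 2, 2, 2 and 1 genes at T0, T12, T24, T60 and 96h, and the RA contrast in Ctrl 1, 3 and 4 at T12, T24 and T60. It counted 5 in dPOLE4, 5 in Ctrl MCM2-2A and 0 for the difference between the lines. For POLE4 loss in MCM2-2A at T24, 1 gene (Trim28) passed at an adjusted p under 0.05, with all groups in the fit, with DESeq2 and without the filter. A replicate block gave 2 genes in the line contrast at T12 (14.1% of features), and 1 each for POLE4 loss in MCM2-2A at T24 (5.42%) and 96h (7.26%). The pairing was accepted at 96h only. With 1 library left out, the line contrast counted 2 to 4 genes at T12, 2 to 5 at T60 and 3 to 5 at 96h, and POLE4 loss in MCM2-2A at T24 counted 0 to 1. The cause was not tested.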
